A study of Mus musculus with 11 samples.

Results

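Arginine transport and metabolism was followed through 9 genes in RNA from CD11b-positive cells of irradiated mouse tumours, chosen by gene symbol as the arginases, the inducible nitric oxide synthase and its cofactor enzyme, the arginine transporters and the enzymes of arginine recycling and ornithine use. All 9 were found among the 22068 symbols of the deposited tables. The 11 libraries came from magnetic bead isolates of myeloid cells from tumours implanted under the skin of C57BL/6 mice and taken at day 4 after a local dose of 15 Gy. The hosts were wild type (WT, n = 3), TLR9-/- (TLR9KO, n = 4) or STAT3-/- by an MxCre transgene and a floxed Stat3 gene (STAT3KO, n = 4). MxCre is driven by the interferon-inducible Mx1 promoter, which acts in many tissues besides blood cells, and the labels name no WT mice that carry MxCre or the floxed allele. The sources used here do not give the tumour line, the age or sex of the mice, how Cre was induced, or whether each library is 1 animal, so p-values cover only the variation among these libraries, part of which may be technical.

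Arginine enters myeloid cells mainly through cationic amino acid transporters and is then used by competing enzymes. Nitric oxide synthase turns it into nitric oxide and citrulline, and argininosuccinate synthase and lyase can turn the citrulline back into arginine. Arginases split it into urea and ornithine, from which ornithine decarboxylase starts polyamine synthesis. In macrophages, high Nos2 is a classical mark of interferon and microbial activation and high Arg1 of interleukin 4 activation, and tumour myeloid cells can carry both. Depletion of arginine by such cells is known to restrain T cells.

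Levels are given in RPKM, the read number of a gene divided by its length and by the library's mapped reads, so that genes can be compared per length. Tests were made on log2(RPKM + 1) with limma across the 10557 genes whose mean reached 1 RPKM, and a gene is said to have risen or fallen where its p-value, adjusted over all of these genes by the Benjamini-Hochberg method, was under 0.05. All 9 members passed the filter on low values. Stat3 measured 18.2 ± 1.85 RPKM (SD) in STAT3KO against 73.1 ± 2.78 RPKM in WT, and Tlr9 measured 5.77 ± 1.72 RPKM in TLR9KO against 30.3 ± 10.6 RPKM in WT. Itgam, which encodes CD11b, was 301 ± 10.5 RPKM in WT, 242 ± 62.9 RPKM in TLR9KO and 218 ± 18.2 RPKM in STAT3KO. The 11 macrophage markers summed to between 4953 and 6013 RPKM in WT, between 5390 and 8344 in TLR9KO, and between 8143 and 11866 in STAT3KO, while the 4 B cell markers summed to at most 4.65 RPKM. The 10 neutrophil markers summed to 572 RPKM in STAT3KO replicate 2 and to between 31.5 and 84.8 RPKM in the other 10 libraries. Pigment cell genes, 7 in number, were present throughout at 454 to 1446 RPKM, and none of them passed the test in any comparison. Depth, estimated from the steps between low values, was such that a 2 kb transcript at 1 RPKM drew between 60.0 and 106.9 reads.

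Over all libraries the members spanned a wide range of levels. Arg1 averaged 698 RPKM, above 99% of the genes tested. Odc1 followed at 79.7 RPKM, then Nos2 at 50.5, Asl at 31.9, Slc7a2 at 22.8, Ass1 at 20.2, Gch1 at 11.8 and Slc7a1 at 11.5 RPKM. Arg2, the mitochondrial arginase, was lowest at 3.56 RPKM. The spread between libraries did not follow this order. The highest library exceeded the lowest 22.0-fold for Slc7a2 and 13.7-fold for Nos2, but 2.87-fold for Arg1 and 1.36-fold for Asl.

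**Figure D1:**
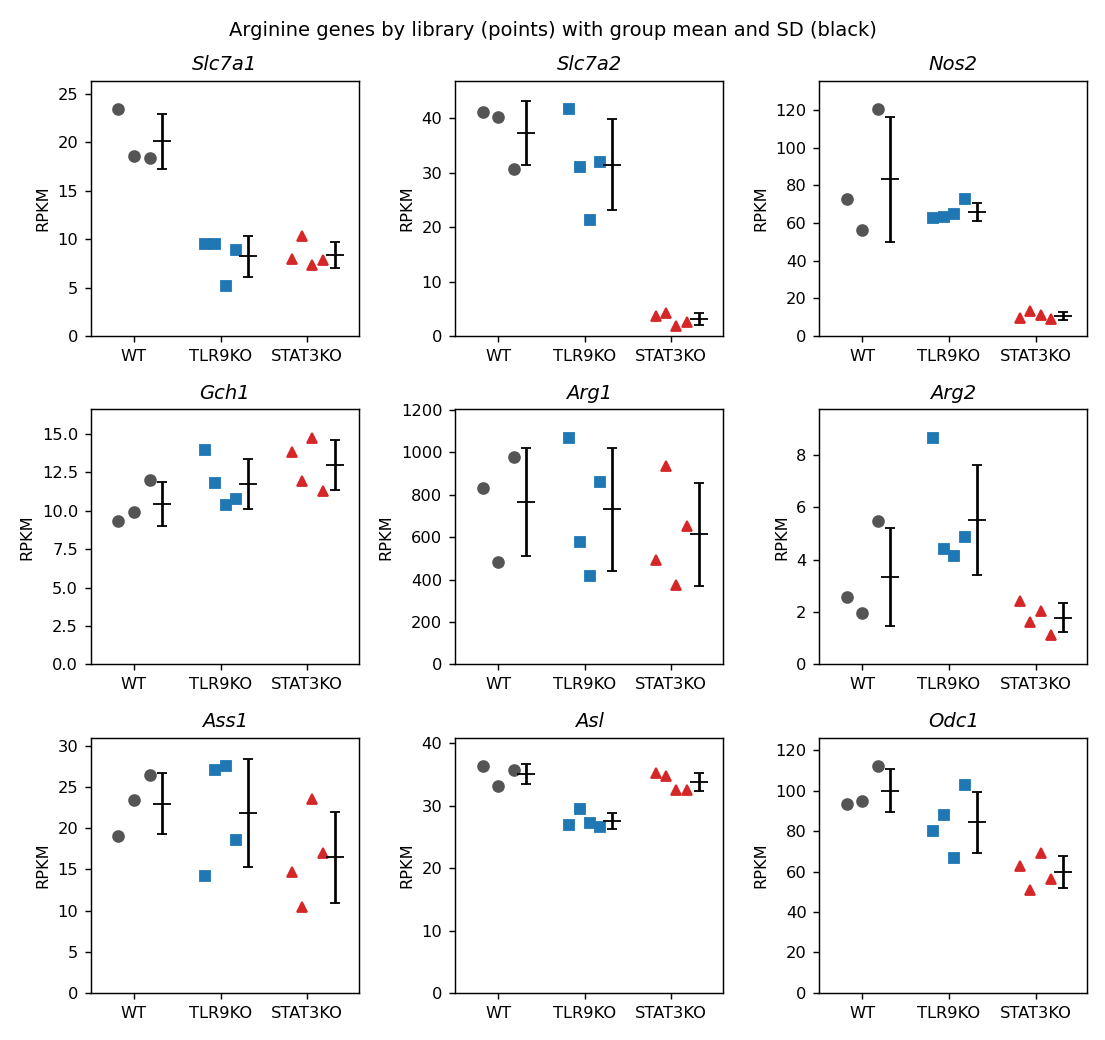
RPKM (vertical axes, from 0) of the 9 genes in each of the 11 libraries, by group, with the group mean and SD in black. Slc7a2 and Nos2 are low in all 4 STAT3KO libraries, Slc7a1 is low in the 4 TLR9KO and the 4 STAT3KO libraries, and the groups overlap for Arg1, Ass1 and Gch1.

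In STAT3KO against WT, 4 of the 9 members fell, 0 rose and 5 did not pass the test. Over all genes tested 44.0% were called, 14.8% as falls and 29.2% as rises. The members' median log2 difference was -0.58, against 0.095 over all genes. Those that fell were both transporters, the nitric oxide synthase and the ornithine decarboxylase, and the same 4 were the members whose groups did not overlap, which was so for 47.7% of all genes, with STAT3KO higher in 30.8% and lower in 16.9%. In TLR9KO against WT, 2 members fell (Slc7a1 and Asl), 0 rose and 7 did not pass, against 30.6% of all genes called, 10.6% as falls and 20.0% as rises. Both had groups that did not overlap, as had 36.1% of all genes, with TLR9KO higher in 22.8% and lower in 13.3%. The members' median was -0.26, and that of all genes 0.036. In STAT3KO against TLR9KO, 4 fell (Nos2, Slc7a2, Arg2 and Odc1) and 1 rose (Asl), with 22.8% of all genes called, 9.46% as falls and 13.4% as rises. There the medians were -0.39 and 0.065, and of the 5 members called only Odc1 had overlapping groups, while 27.0% of all genes did not overlap, 16.4% with STAT3KO higher and 10.6% with it lower. Any 2 of these comparisons share a group of libraries.

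**Figure D2:**
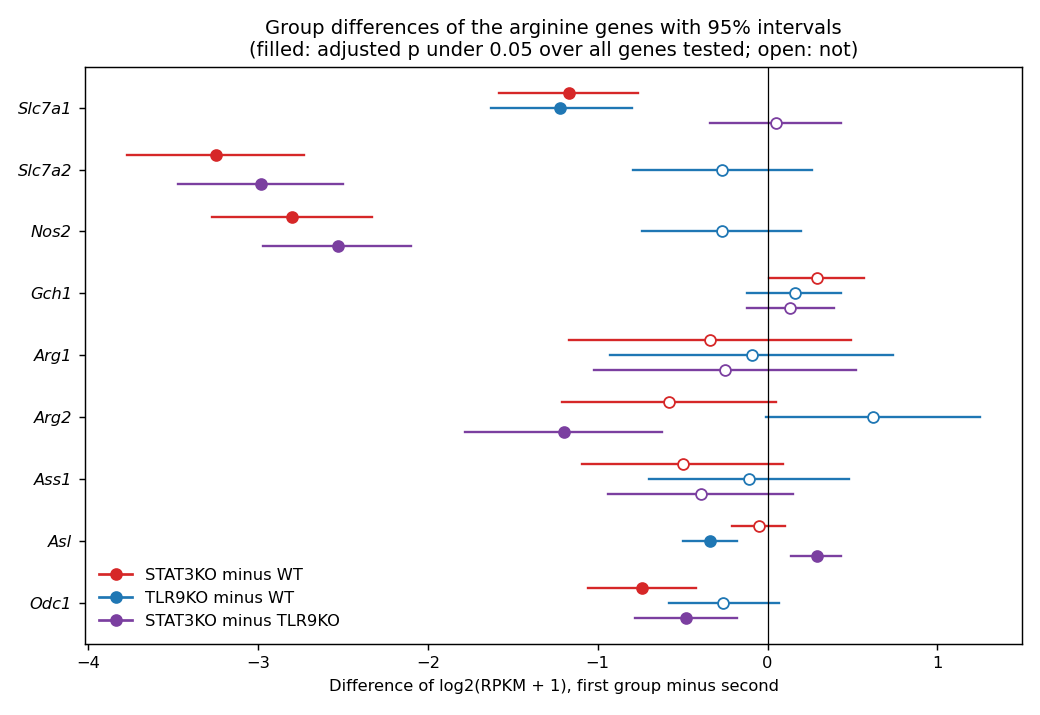
Differences of log2(RPKM + 1) between groups for the 9 members (horizontal axis), with 95% intervals from the limma fit. Filled points passed the adjusted threshold over all genes tested and open points did not. Slc7a2 and Nos2 lie below -2.5 in both comparisons of STAT3KO, and Slc7a1 lies near -1.2 in both knockouts against WT.

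Slc7a1 encodes CAT1, the widely expressed cationic amino acid transporter. It was 23.4, 18.6 and 18.3 RPKM in the WT libraries, 9.48, 9.49, 5.12 and 8.84 RPKM in TLR9KO, and 7.94, 10.3, 7.37 and 7.89 RPKM in STAT3KO. Every knockout library was below every WT library, and the 2 knockout groups overlapped. STAT3KO averaged 8.38 ± 1.31 RPKM (SD, n = 4), or 41.7% of WT (20.1 ± 2.85 RPKM, n = 3), a log2 difference of -1.17 ± 0.19 (SE, limma adjusted p = 0.000678). TLR9KO averaged 8.23 ± 2.10 RPKM, or 41.0% of WT (-1.22 ± 0.19, limma adjusted p = 0.00122). Both comparisons use the same WT libraries. The difference between the knockouts themselves was 0.05, with a 95% interval from -0.34 to 0.43 (limma adjusted p = 0.871). With all 3 groups in bulk RNA, fewer cells of a type and less RNA per cell cannot be told apart, here and for each gene below.

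Slc7a1 is the member that was low in both knockouts and for which promoter sequence was at hand, and both of its annotated start regions are shown, from 250 bases before to 50 bases after the start, from RefSeq on GRCm38.p6. The expression files use mm9, so these coordinates belong to the reference and not to the files. The windows lie at chr5:148399855-148400154 and chr5:148392766-148393065, both on the minus strand, and capitals mark a match to the STAT element TTCNNNGAA.
Slc7a1 first start: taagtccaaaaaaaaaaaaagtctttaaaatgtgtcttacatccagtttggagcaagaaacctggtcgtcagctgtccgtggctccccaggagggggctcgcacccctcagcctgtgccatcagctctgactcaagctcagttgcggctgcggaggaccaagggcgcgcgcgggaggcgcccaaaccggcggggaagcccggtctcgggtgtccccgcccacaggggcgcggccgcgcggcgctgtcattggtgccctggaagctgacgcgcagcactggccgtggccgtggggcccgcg
Slc7a1 second start: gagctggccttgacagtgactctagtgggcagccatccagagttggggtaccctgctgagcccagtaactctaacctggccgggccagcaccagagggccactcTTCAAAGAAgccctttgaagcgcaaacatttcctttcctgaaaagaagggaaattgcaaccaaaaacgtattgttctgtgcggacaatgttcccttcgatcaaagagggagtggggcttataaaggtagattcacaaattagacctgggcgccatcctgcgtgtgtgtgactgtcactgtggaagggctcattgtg
The second window holds 1 match, TTCAAAGAA, whose first base lies at -146 relative to the start, and the first window holds none of the 5 motifs searched. These were TTCNNNGAA, its STAT6 type with 4 bases between TTC and GAA, an NF-kB type (GGGA, any base, TTTCC), a C/EBP type (TTGC, any 2 bases, AA) and ACGTG, the core of the hypoxia response element, read on both strands. Of 32851 promoter windows of the same length, 8.3% held the first, 6.95% the second, 0.41% the third, 10.8% the fourth and 19.62% the last. Windows were matched for 4 of the 9 members, Slc7a1, Ass1, Odc1 and Gch1. In Ass1 the letters CACGTG, which hold ACGTG on both strands, begin at -36, and the windows of Odc1 and Gch1 held no match. The second Slc7a1 window was 51.7% G and C and the first 65%. A match is a description of these letters, and no binding was measured.

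Slc7a2 encodes CAT2, the transporter that macrophages induce upon activation and that supplies arginine to both nitric oxide synthase and arginase. Its levels were 41.2, 40.3 and 30.6 RPKM in WT, and 41.7, 31.2, 21.3 and 31.9 RPKM in TLR9KO. In STAT3KO they were 3.76, 4.20, 1.89 and 2.59 RPKM. All 4 STAT3KO libraries lay far below the other 7, and WT and TLR9KO overlapped. STAT3KO averaged 3.11 ± 1.06 RPKM, or 8.32% of WT (37.4 ± 5.86 RPKM) and 9.87% of TLR9KO (31.5 ± 8.33 RPKM). The log2 differences were -3.25 ± 0.24 against WT (limma adjusted p = 1.34e-05) and -2.98 ± 0.22 against TLR9KO (limma adjusted p = 1.92e-05). Ordered by log2 difference it was the 5th steepest fall of the 10557 genes in each of these comparisons. TLR9KO against WT gave -0.27, with a 95% interval from -0.79 to 0.26 (limma adjusted p = 0.423). With the length of the longest GENCODE transcript, the lowest value, 1.89 RPKM, corresponds to about 606 reads.

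The RPKM ratio of Slc7a2 to Slc7a1 was 1.67 to 2.17 in WT, 3.28 to 4.40 in TLR9KO and 0.256 to 0.474 in STAT3KO, with no overlap between any groups. As log2 of RPKM + 1 the ratio averaged 0.86 ± 0.19 (SD, n = 3) in WT, 1.81 ± 0.17 (n = 4) in TLR9KO and -1.22 ± 0.27 (n = 4) in STAT3KO. Slc7a2 was thus the more abundant of the pair per length in the 7 WT and TLR9KO libraries, and Slc7a1 in the 4 STAT3KO libraries. No test was made of this ratio, because its genes were chosen with their results known. Among the 5 other tested genes of cationic amino acid transport, 0 rose and 0 fell in each comparison with limma. Of these, Slc7a7 encodes y+LAT1, the light chain of an arginine exporter. Slc7a7 was 21.2 ± 1.62 RPKM in WT, 23.4 ± 2.41 RPKM in TLR9KO and 24.8 ± 4.16 RPKM in STAT3KO. The heavy chain gene of that exporter, Slc3a2, was 184 ± 26.7, 164 ± 23.9 and 197 ± 12.9 RPKM in the same order.

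Nos2 encodes the inducible nitric oxide synthase. It was 72.6, 56.5 and 120.4 RPKM in WT, and 62.6, 63.1, 64.6 and 72.8 RPKM in TLR9KO. In STAT3KO it was 9.55, 13.3, 10.9 and 8.80 RPKM, so that the highest STAT3KO library was under the lowest of the other 7. STAT3KO averaged 10.7 ± 1.99 RPKM, or 12.8% of WT (83.2 ± 33.2 RPKM) and 16.2% of TLR9KO (65.8 ± 4.76 RPKM). These were log2 differences of -2.80 ± 0.21 (limma adjusted p = 1.58e-05) and -2.53 ± 0.20 (limma adjusted p = 2.52e-05), the 17th and 13th steepest falls of all genes. TLR9KO against WT did not pass (-0.27, 95% interval from -0.74 to 0.20, limma adjusted p = 0.373), and the difference was 0.03 without WT replicate 3, the highest library. The other nitric oxide synthases were barely detected, with Nos1 at most at 0.02 RPKM and Nos3 at most at 0.1 RPKM in any library.

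Gch1, GTP cyclohydrolase, makes the first step toward tetrahydrobiopterin, the cofactor that nitric oxide synthase needs. It was 9.35 to 12.0 RPKM in WT, 10.4 to 13.99 in TLR9KO and 11.3 to 14.8 RPKM in STAT3KO, and all groups overlapped. STAT3KO against WT gave 0.29 ± 0.13, with a 95% interval from 0.01 to 0.57 before adjustment, and did not pass (limma adjusted p = 0.0866). That difference passed in 2 of 16 alternatives, without WT replicate 3 (0.39, limma adjusted p = 0.0474) and with array weights (0.30, limma adjusted p = 0.0497). The interval of STAT3KO against TLR9KO ran from -0.12 to 0.39 and that of TLR9KO against WT from -0.12 to 0.43.

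Of the 10 other tested genes of cofactor supply and synthase regulation, 5 rose and 1 fell in STAT3KO against WT. Over all genes tested, 29.2% rose and 14.8% fell there. Pts, the next enzyme of tetrahydrobiopterin synthesis, rose from 6.43 ± 0.57 to 9.84 ± 1.56 RPKM (0.54 ± 0.15). Nostrin, a trafficking protein of the endothelial synthase, the barely detected Nos3, rose too (0.60 ± 0.18). Outside the rule for naming genes, Ddah2, a dimethylarginine hydrolase (0.83 ± 0.30), rose and Cygb, cytoglobin (-1.44 ± 0.53), fell, both named after their values were seen and both lost without single libraries, such as WT replicate 2 (limma adjusted p = 0.176 and 0.192). In TLR9KO against WT 4 rose and 2 fell, beside 20.0% and 10.6% of all genes. Pts (0.59 ± 0.15) and Nostrin (0.66 ± 0.18) were among the rises, and neither passed with a correction for GC content and length (limma adjusted p = 0.406 and 0.221). The falls, named after their values were seen, were Cygb (-1.68 ± 0.53) and Spr, sepiapterin reductase (-0.31 ± 0.10), whose calls were lost once WT replicate 1 was left out (limma adjusted p = 0.134 and 0.163). In STAT3KO, Pts and Nostrin lost their calls under that correction too (limma adjusted p = 0.134 and 0.375), and without WT replicate 3 (0.0577 and 0.095). STAT3KO against TLR9KO gave 2 rises and 0 falls, Spr (0.29 ± 0.09) and Ddah2 (0.99 ± 0.28), both lost without STAT3KO replicate 1 (limma adjusted p = 0.0794 and 0.0636). Between the knockouts, 13.4% of all genes rose and 9.46% fell.

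Ass1 and Asl, argininosuccinate synthase and lyase, rebuild arginine from citrulline. Ass1 ranged from 19.0 to 26.5 RPKM in WT, 14.2 to 27.5 in TLR9KO and 10.5 to 23.6 RPKM in STAT3KO, and the groups overlapped. Its difference of -0.50 between STAT3KO and WT had a 95% interval from -1.09 to 0.09 (limma adjusted p = 0.154). Asl varied least of all members, at 36.3, 33.2 and 35.7 RPKM in WT, 26.8, 29.4, 27.2 and 26.6 RPKM in TLR9KO and 35.3, 34.7, 32.6 and 32.5 RPKM in STAT3KO. The TLR9KO libraries were below the other 7. TLR9KO against WT gave -0.34 ± 0.07 (limma adjusted p = 0.00517) and STAT3KO against TLR9KO 0.29 ± 0.07 (limma adjusted p = 0.0116). Corrected for GC content and length, the first difference was smaller, at -0.21 (limma adjusted p = 0.0348), and the second missed the threshold (0.14, limma adjusted p = 0.093). STAT3KO and WT differed by -0.05, with an interval from -0.21 to 0.10. The hepatic urea cycle genes Cps1 and Otc were listed at 0 or at most 0.01 RPKM in every library.

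Arg1, the cytosolic arginase, was the most abundant member in every library. Its levels were 833, 482 and 980.2 RPKM in WT, 1068, 578, 419 and 859 RPKM in TLR9KO, and 493, 937, 373 and 652 RPKM in STAT3KO. All groups overlapped, and libraries of 1 group differed by as much as 2.55-fold. No comparison passed, with log2 differences of -0.34 (95% interval from -1.17 to 0.49, limma adjusted p = 0.498) for STAT3KO against WT, -0.25 (from -1.02 to 0.52) for STAT3KO against TLR9KO and -0.09 (from -0.93 to 0.74) for TLR9KO against WT. Both intervals of STAT3KO reach below -1, so a fall of 2-fold lies within them. The highest STAT3KO library, replicate 2, was also the one with the high neutrophil marker sum, and its part in Arg1 was not tested. Single libraries moved the Arg1 difference between STAT3KO and WT both ways, to -0.57 without STAT3KO replicate 2, -0.64 without WT replicate 2 and -0.13 without either STAT3KO replicate 3 or WT replicate 3. Corrected for GC content and length it was -0.72, and none of these passed with limma (adjusted p from 0.181 to 0.837). Without STAT3KO replicate 2, the differences from WT were -2.90 for Nos2, -3.38 for Slc7a2 and -1.27 for Slc7a1, larger than with it, and -0.67 for Odc1 and -0.32 for Ass1, smaller than with it.

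The RPKM ratio of Arg1 to Nos2 was 11.5, 8.53 and 8.14 in WT, 17.1, 9.16, 6.49 and 11.8 in TLR9KO and 51.7, 70.3, 34.1 and 74.0 in STAT3KO. The lowest STAT3KO library exceeded the highest of the other 7. On the log2 scale of RPKM + 1 the ratio averaged 3.20 ± 0.27 in WT, 3.37 ± 0.59 in TLR9KO and 5.65 ± 0.51 in STAT3KO (SD), with no test for the reason given above. Arg1 exceeded Nos2 per length in all 11 libraries.

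**Figure D3:**
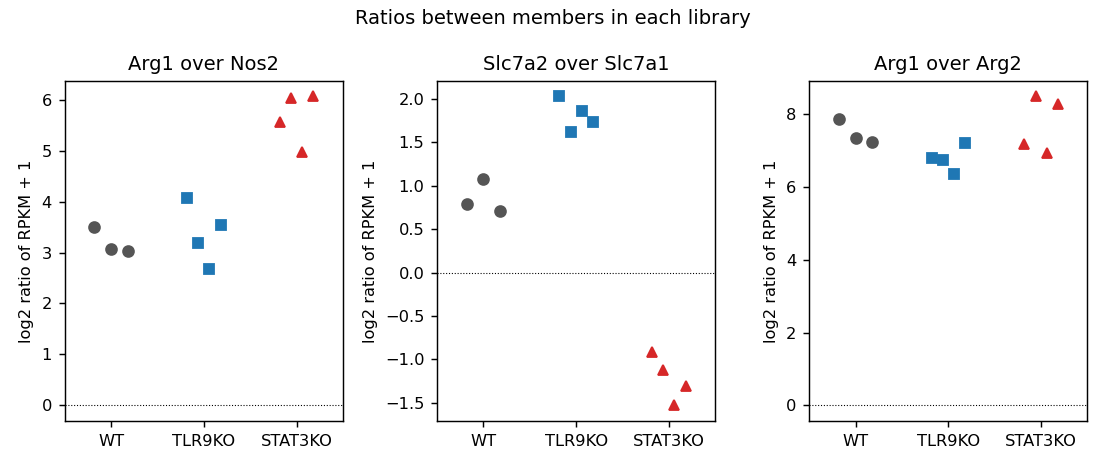
Log2 ratios of RPKM + 1 between pairs of members (vertical axes) in each library, by group. Arg1 over Nos2 is 4.97 or more in STAT3KO and at most 4.07 elsewhere, Slc7a2 over Slc7a1 is below 0 in the STAT3KO libraries alone, and Arg1 over Arg2 overlaps between STAT3KO and the other groups.

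Arg2 encodes the mitochondrial arginase. It was 2.58, 1.95 and 5.48 RPKM in WT, 8.64, 4.42, 4.13 and 4.87 RPKM in TLR9KO and 2.40, 1.60, 2.02 and 1.12 RPKM in STAT3KO. TLR9KO and STAT3KO did not overlap, and WT overlapped both. STAT3KO was 32.4% of TLR9KO (1.79 ± 0.55 against 5.52 ± 2.11 RPKM, log2 -1.20 ± 0.27, limma adjusted p = 0.00989). Against WT, neither STAT3KO (-0.58, 95% interval from -1.21 to 0.05, limma adjusted p = 0.127) nor TLR9KO (0.62, from -0.01 to 1.25, limma adjusted p = 0.122) passed. Without WT replicate 3, the highest WT library, TLR9KO was higher at 0.95 (limma adjusted p = 0.0278), and after correction for GC content and length STAT3KO was lower than WT at -1.02 (limma adjusted p = 0.0268). The lowest value, 1.12 RPKM in STAT3KO replicate 4, corresponds to about 74 reads. Exons of Arg2 overlap those of Vti1b on the opposite strand in GENCODE, and strand use in counting is not given in the sources used here, so reads of the pair cannot be told apart where they overlap. Vti1b was 29.0 ± 1.78 RPKM in WT, 43.2 ± 1.32 RPKM in TLR9KO and 50.7 ± 3.77 RPKM in STAT3KO, and rose in both knockouts (0.56 in TLR9KO and 0.79 in STAT3KO). Its part in the Arg2 values was not tested.

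Odc1, ornithine decarboxylase, commits ornithine to polyamines. It was 93.5, 94.8 and 112 RPKM in WT, 80.03, 87.8, 66.8 and 102.8 RPKM in TLR9KO and 62.7, 50.7, 69.0 and 56.5 RPKM in STAT3KO. Each STAT3KO library was below each WT library, and TLR9KO overlapped both other groups. STAT3KO stood at 59.7% of WT (59.7 ± 7.86 against 100.1 ± 10.4 RPKM, log2 -0.74 ± 0.15, limma adjusted p = 0.00231). The difference from TLR9KO was smaller (-0.48 ± 0.14, limma adjusted p = 0.0275) and did not pass without STAT3KO replicate 2 (0.0724) or 4 (0.0702) or without TLR9KO replicate 2 (0.0709) or 4 (0.0762). TLR9KO against WT gave -0.26 (95% interval from -0.58 to 0.07, limma adjusted p = 0.209).

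Among 12 other tested genes of polyamine synthesis and turnover, 4 rose and 0 fell in STAT3KO against WT. Of all genes tested, 29.2% rose and 14.8% fell in that comparison. Sat1, spermidine/spermine acetyltransferase, which marks polyamines for export and breakdown, rose from 119.5 to 239 ± 19.9 RPKM (1.00 ± 0.12, limma adjusted p = 0.000104). Antizyme gene Oaz1, whose product sends ornithine decarboxylase to degradation, rose from 68.6 ± 9.18 to 107.6 ± 6.71 RPKM (0.65 ± 0.11), and spermine synthase Sms from 7.26 ± 1.03 to 11.1 ± 1.09 RPKM (0.56 ± 0.11). These 3 calls held under each alternative tried, but correction for GC content and length brought Sat1 down to 0.47 and Sms to 0.35. Paox, polyamine oxidase, also rose (0.63 ± 0.22), a call lost without STAT3KO replicate 2 (limma adjusted p = 0.0877) among other libraries. In TLR9KO against WT 2 rose and 2 fell, beside 20.0% and 10.6% of all genes. Sat1 rose (0.78 ± 0.12) but missed the threshold after correction for GC content and length (0.30, limma adjusted p = 0.121), and the antizyme inhibitor Azin1 (0.56 ± 0.19) lost its call once WT replicate 1 was left out (limma adjusted p = 0.18) and was near 0 after that correction (0.10, limma adjusted p = 0.769). The hypusine enzymes Dhps (-0.35 ± 0.09) and Dohh (-0.31 ± 0.10), which use spermidine to modify a translation factor, fell, and both calls depended on WT replicate 1 (without it, limma adjusted p = 0.0587 and 0.132). Dohh was -0.18 after the correction (limma adjusted p = 0.0958). STAT3KO against TLR9KO gave 2 rises, Sms (0.44 ± 0.10) and Oaz1 (0.41 ± 0.11), and 0 falls, and Oaz1 lost its call with the replicate block and that correction together (0.27, limma adjusted p = 0.0863). Between the knockouts, 13.4% of all genes rose and 9.46% fell. Amd2 was 1.15 times Amd1 in each library, so the values of these near-identical genes carry the same information, and the 12 genes hold 11 separate measurements.

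Ornithine and glutamate also lead to proline. Of 4 tested genes of proline synthesis and breakdown, 0 rose and 1 fell in STAT3KO and in TLR9KO against WT. In both it was Aldh18a1, which encodes the synthase of pyrroline carboxylate from glutamate, at 23.2 ± 2.28 RPKM in WT, 12.9 ± 1.72 RPKM in TLR9KO and 11.0 ± 1.25 RPKM in STAT3KO. Its differences from the shared WT libraries were -1.01 ± 0.12 (limma adjusted p = 0.000112) and -0.80 ± 0.12 (limma adjusted p = 0.00103), and both held under each alternative. Over all genes, 14.8% fell in STAT3KO and 10.6% in TLR9KO against WT. Pycrl, a pyrroline carboxylate reductase, was higher in STAT3KO than in TLR9KO (0.34 ± 0.10), a call lost without STAT3KO replicate 1 (limma adjusted p = 0.0736) and other libraries, and at 0.14 after correction for GC content and length (limma adjusted p = 0.281). The 3 tested genes of ornithine and creatine metabolism, Oat, Gatm and Gamt, gave 0 rises and 0 falls in each comparison with limma, and Oat, ornithine aminotransferase, was 38.6 ± 5.74 RPKM in WT, 41.7 ± 3.95 RPKM in TLR9KO and 45.4 ± 3.85 RPKM in STAT3KO.

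In STAT3KO against WT, 29.2% of all genes tested rose and 14.8% fell. Of 17 known inducers and regulators of Nos2 or Arg1, 4 rose and 5 fell there, with a median difference of -0.085. The falls were the interleukin 4 receptor chain Il4ra (-1.36 ± 0.15), the hypoxia-inducible factor Hif1a (-1.07 ± 0.14), Il6 (-1.66 ± 0.27), Il1b (-2.63 ± 0.59) and Rela (-0.30 ± 0.08), and the rises Pparg (1.01 ± 0.18), Il10 (0.86 ± 0.23) and the interferon gamma receptor chains Ifngr1 (0.44 ± 0.16) and Ifngr2 (0.36 ± 0.12). Il1b, Rela, Il10 and the receptor chains fell outside the naming rule and were chosen after their values were seen, and correcting for GC content and length removed the calls of Rela (-0.20), Il10 (0.34) and Ifngr1 (0.19). Calls of Ifngr1 and Ifngr2 were lost with median-ratio scaling. Cebpb, a factor known to act on Arg1, did not pass (153 ± 40.3 RPKM in WT and 145 ± 39.6 RPKM in STAT3KO). TLR9KO against WT gave 2 rises and 3 falls, Ifngr2 (0.44 ± 0.12), Klf4 (0.86 ± 0.30), Il6 (-1.02 ± 0.27), Rela (-0.25 ± 0.08) and Stat6 (-0.21 ± 0.07), and each of these calls was lost without at least 1 WT library, Ifngr2 and Klf4 without WT replicate 1 or 3, Il6 without WT replicate 2, Rela without WT replicate 3 and Stat6 without each of the 3. After correction for GC content and length, Rela (-0.02, limma adjusted p = 0.891) and Stat6 (-0.03, limma adjusted p = 0.824) were near 0, Klf4 did not pass (limma adjusted p = 0.054), and Il6, which passed, reached -1.75 with the replicate block added. STAT3KO against TLR9KO gave 1 rise, Pparg (1.01 ± 0.17), and 4 falls, Hif1a (-1.28 ± 0.13), Il4ra (-1.28 ± 0.14), Klf4 (-1.28 ± 0.28) and Il1b (-2.54 ± 0.55), and these 5 calls held under each alternative. Over all genes, 20.0% rose and 10.6% fell in TLR9KO against WT, and 13.4% and 9.46% in STAT3KO against TLR9KO.

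**Figure D4:**
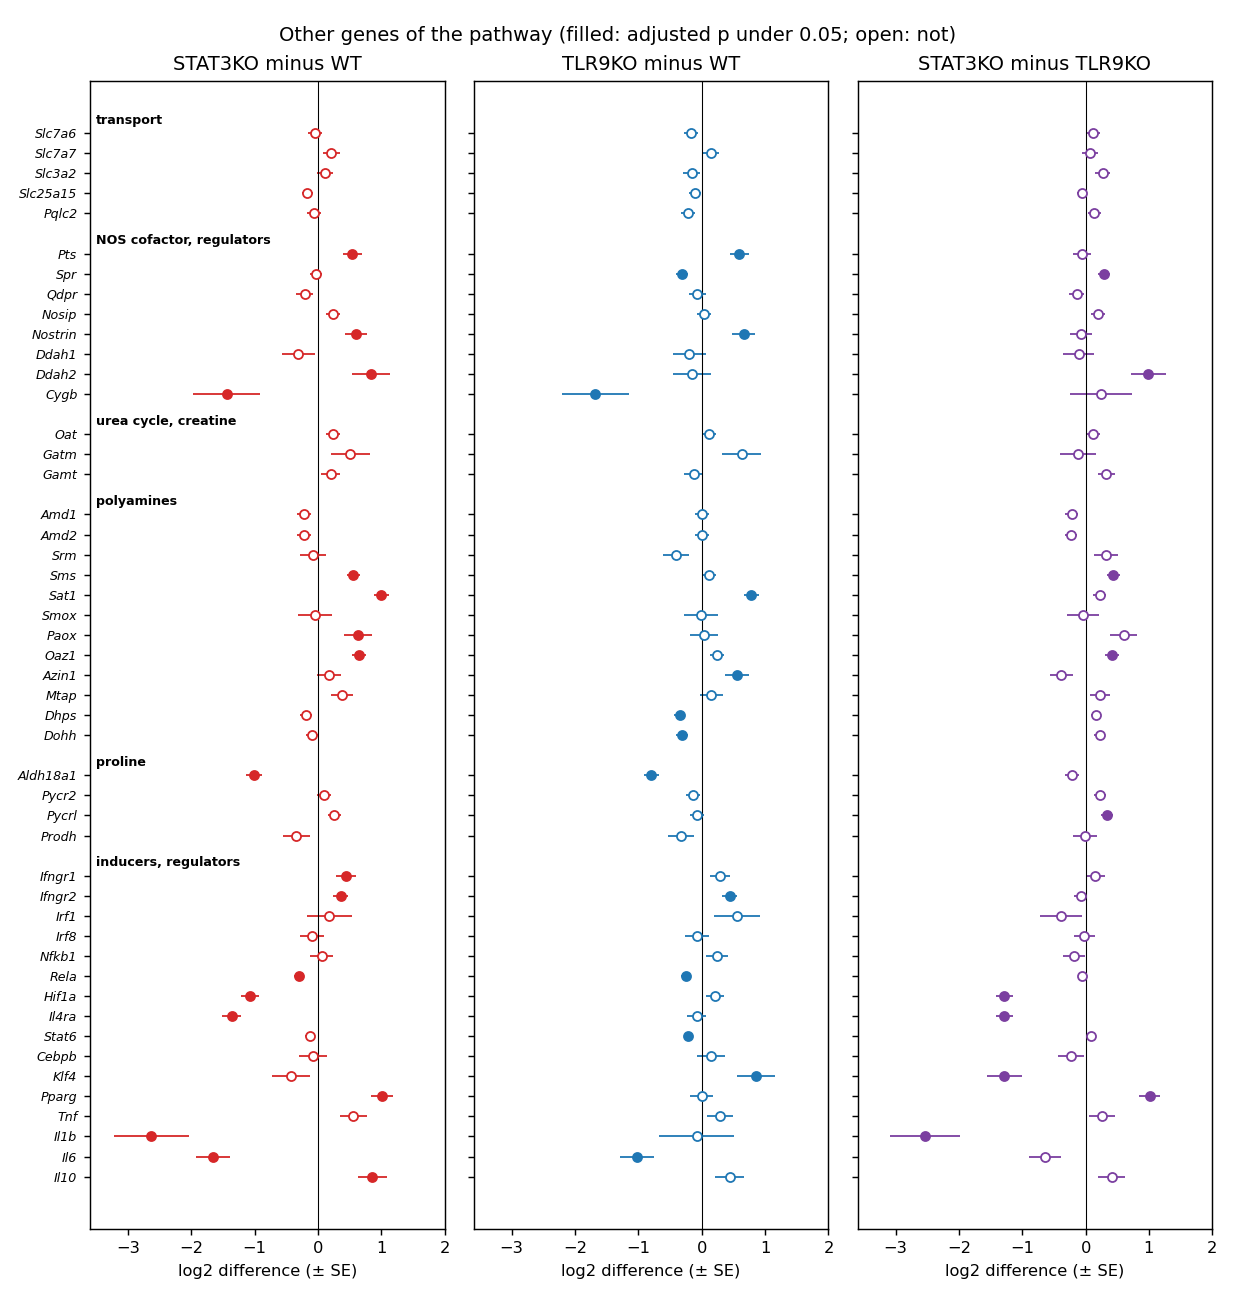
Log2 differences (horizontal axes, with SE) of other tested genes of the pathway and of known inducers and regulators, 1 panel for each comparison. Filled points passed the adjusted threshold. Aldh18a1 lies at -1.01 and -0.80 in the comparisons with WT, the 5 transport genes are open in each panel, and Sat1, Oaz1 and Sms are filled to the right in STAT3KO minus WT.

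Genes with the most alike pattern were sought as those with the smallest root mean square difference of standardized log2 values over the 11 libraries, among the 7350 other genes whose mean reached 5 RPKM. All points share the libraries and the 3 groups, and the values are a description. For Nos2 they were Ltb4r1, a leukotriene B4 receptor (0.18 SD units, with means of 104 RPKM in WT, 72.1 in TLR9KO and 17.6 in STAT3KO), Upp1, uridine phosphorylase (0.22; 63.2, 37.5 and 8.35 RPKM), and F10, coagulation factor X (0.22; 130.1, 107.9 and 44.3 RPKM). For Slc7a2 they were the glycogen phosphorylase Pygl (0.15; 77.6, 69.6 and 39.3 RPKM), the tetraspanin Tspan5 (0.21; 16.9, 13.8 and 6.63 RPKM) and F7, coagulation factor VII (0.22; 143, 116 and 39.5 RPKM). Slc7a2 ranked 14th for Nos2, and Nos2 ranked 19th for Slc7a2, at a difference of 0.29, where the median over all genes was 1.46. For Arg1 the closest genes were farther off, the neutrophil collagenase Mmp8 at 0.51, Tmem8 at 0.54 and the glucose transporter Slc2a1 at 0.54. Nos2 stood at 1.07 from Arg1 and Slc7a1 at 1.02.

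Markers of other cell types moved with some of these differences. The 7 dendritic cell markers summed to 141 to 224 RPKM in WT, 82.0 to 156 in TLR9KO and 30.3 to 70.5 RPKM in STAT3KO. Nos2 and Slc7a2 were also lowest in STAT3KO, but neither passed in TLR9KO against WT. Most of that sum was Itgax, which macrophages also express (169 ± 36.6, 103 ± 27.7 and 37.4 ± 12.8 RPKM). Xcr1 and Flt3 averaged under 1 RPKM in each group, but 4 of the 7 markers, Itgax among them, passed the filter on low values. None of the 7 was at 0 in a group. Of the 4 that were tested, 1 fell and 0 rose in STAT3KO against WT, with a median of -0.115 and a range from -2.19 to 0.31. In STAT3KO against TLR9KO 1 fell and 1 rose (median -0.043, from -1.45 to 0.55), so the markers did not all follow the sum. The part of these markers in the result was not tested. T and NK cell markers, 9 in number, summed to 8.76 to 36.7 RPKM in WT, 4.24 to 21.9 in TLR9KO and 4.93 to 25.4 RPKM in STAT3KO. Fibroblast markers, 7 in number, were lowest in WT (1.7 to 3.71 RPKM) and higher in TLR9KO (8.58 to 37.7 RPKM) and STAT3KO (12.3 to 26.6 RPKM), the reverse of Slc7a1 and Aldh18a1. The 3 of them that were tested rose in both knockouts, and their part in those differences was not tested. Of 6 tested red cell and platelet markers, 4 fell and 0 rose in TLR9KO against WT (median -2.79), and 4 fell and 1 rose in STAT3KO against WT (median -2.34), so most of them were lower in both knockouts, as Slc7a1 and Aldh18a1 were. The sum of all 8 such markers was 158 to 593 RPKM in WT, 149 to 772 in TLR9KO and 610 to 1026 in STAT3KO, where the platelet factor gene Pf4, the 1 that rose, made up most of it. The 7 inflammatory monocyte markers summed to 359 to 664 RPKM in WT, 652 to 1283 in TLR9KO and 840 to 2768 in STAT3KO, without overlap between WT and STAT3KO, and 2 of them rose and 1 fell in STAT3KO against WT. In the same comparison 7 of the 11 macrophage markers rose and 2 fell. The part of these 3 lists in the differences was not tested. For all marker lists, the share over all genes was 29.2% rises and 14.8% falls in STAT3KO against WT. It was 20.0% and 10.6% in TLR9KO against WT, and 13.4% and 9.46% in STAT3KO against TLR9KO. Of single genes, 30.8% were higher in STAT3KO than in WT without overlap.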

How the data were processed

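The authors deposited 1 RPKM value per gene symbol for each of 11 libraries, per the file headers, written to 2 decimals. For TLR9KO replicate 4 the header lacks the unit, and RPKM was taken from the likeness of its values to the other 10 files. Per the submitters' processing notes, CASAVA 1.7, TopHat 1.3.1, Bowtie 0.12.7, Partek and the build mm9 were used. The sources used here do not give the annotation, the read total in the denominator, strand use or the handling of multiply mapped reads. RPKM values are not counts, so no count model was fitted.

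From these values, log2(RPKM + 1) of the 10557 genes whose mean reached 1 RPKM was fitted with limma 3.58.1 in R 4.3.3 (lmFit with 3 group means on all 11 libraries, contrasts, eBayes with trend, two-sided, Benjamini-Hochberg over all genes tested, threshold 0.05). The script was tested on simulated data. Errors are SD beside RPKM and moderated SE beside log2 differences. Depth (30.0 to 53.45 M reads) was estimated as the read total at which the values of 28 to 46 microRNA genes per library became whole reads within 0.15 for 72.1% to 97.1% of values, and serves as description. The median share over all depths tried was 14.7% to 25.0%. Same-numbered replicates are linked by their number alone in the labels.

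All 9 members are named. Of each pathway list, up to 4 called genes with the smallest p per comparison are named. Any other gene named from these lists was picked with its values in view, and not every one is marked so. Klf4 in TLR9KO against WT and the genes named without a call, such as Cebpb, Slc7a7, Slc3a2 and Oat, are among these. Some genes counted in the lists are not reported here by name or plotted. For Nos2, Slc7a2 and Arg1 the 3 genes most alike are named. The members, lists and tests were chosen with earlier results of these data known. Alternatives were a pseudocount of 0.1, no filter, a mean of at least 5 RPKM, median-ratio scaling, a correction for GC content and transcript length (splines with 3 degrees of freedom, 98.8% of genes matched), array weights, fits on only the groups compared, a replicate block and leaving out each library. Alternatives for the level ratios were chosen after seeing the data. Tables and plots used Python 3.11.15, pandas 2.3.3, numpy 2.4.6 and matplotlib 3.10.9.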

Additional observations from a re-analysis of the deposited data

Results flagged for a closer look

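A library far from the other 3 of its group was seen for 2 of the 18 sets of 4 values examined (9 members in TLR9KO and STAT3KO), where chance flags about 1 in 20. Arg2 in TLR9KO replicate 1, at 8.64 RPKM, stood apart from the other 3 libraries at 4.13 to 4.87 RPKM, with a gap of 83.6% of the group's range. Slc7a1 in TLR9KO replicate 3, at 5.12 RPKM, stood below the other 3 at 8.84 to 9.49 RPKM, with a gap of 85.1% of the range. Without TLR9KO replicate 3, Slc7a1 was still lower in TLR9KO than in WT (log2 -1.03, limma adjusted p = 0.001), and without TLR9KO replicate 1, Arg2 was still lower in STAT3KO than in TLR9KO (-0.99, limma adjusted p = 0.0186).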

How the results depend on the processing

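The falls of Nos2, Slc7a2 and Slc7a1 in STAT3KO and of Slc7a1 in TLR9KO against WT, and those of Nos2, Slc7a2 and Arg2 in STAT3KO against TLR9KO, kept their direction and passed the threshold under each alternative in which they were tested, as did that of Odc1 in STAT3KO against WT. Arg2 was not tested with the minimum of 5 RPKM. Differences that did not pass in the report changed sign in places: Slc7a1 between the knockouts (-0.01 with median-ratio scaling, -0.09 with array weights, -0.05 without STAT3KO replicate 2, -0.14 without TLR9KO replicate 3), and in TLR9KO against WT Gch1 (-0.01 with the GC and length correction), Ass1 (0.01 with array weights, 0.07 without TLR9KO replicate 1), Nos2 (0.03 without WT replicate 3) and Arg1 (0.14 without TLR9KO replicate 3, 0.12 without WT replicate 3). Without single libraries the last 3 ranged from -0.23 to 0.07, -0.50 to 0.03 and -0.39 to 0.14. The cause was not tested. Over all genes, 3229 passed in TLR9KO against WT, 1664 with the GC and length correction and 1985 to 3588 without single libraries, lowest without WT replicate 1. In STAT3KO against TLR9KO 2409 passed, 3807 with array weights and 1577 to 2377 without single libraries, lowest without TLR9KO replicate 4. STAT3KO against WT gave 4648, and 3667 to 4409 without single libraries. Rises were 66.3% of calls in STAT3KO against WT, 65.3% in TLR9KO against WT and 58.5% in STAT3KO against TLR9KO, and 48.7%, 52.1% and 43.6% with median-ratio scaling, which moved the median of all genes in the first from 0.095 to -0.018. With a replicate block 4074, 2662 and 1879 genes passed in STAT3KO against WT, TLR9KO against WT and STAT3KO against TLR9KO, and of the members' calls only that of Odc1 between the knockouts was lost (limma adjusted p = 0.0577). Replicate block and GC correction together left 1066 genes and 1 member, Slc7a1, in TLR9KO against WT. Deviations of same-numbered libraries correlated above 0.1 in 4 of 10 pairs (-0.291 to 0.492 across genes), and 2 of 11 libraries correlated best with their own number, so the numbers were not taken as pairs. The log2 ratio of Slc7a2 to Slc7a1 differed between STAT3KO and TLR9KO by -3.03, and by -3.38 with a pseudocount of 0.1. Depth limits Arg2 most, and counting error was not measured.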
